A study of Mus musculus with 8 samples.

Results

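The mRNA levels of 55 genes of BMP, activin and TGF-beta signaling were described in the mouse uterus at gestation day 3.5 (GD3.5). Control mice were set beside mice with Nr2f2 deleted in cells that express Pgr, the progesterone receptor gene. Nr2f2 encodes the nuclear receptor NR2F2 (COUP-TFII). The genes were chosen by symbol as the ligands, receptors, Smads, antagonists and Id genes of the family, and they are 55 of the 24963 genes in the expression table. Levels are in FPKM, fragments scaled to gene length and to the library's total, so that levels of different genes can be set side by side. Of the 55 genes, 47 averaged 0.5 FPKM or more across all libraries and were tested, and 8 did not. The untested genes were Bmp8a, Bmp8b, Gdf6, Mstn, Nodal, Lefty2, Acvr1c and Smad9.

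The RNA came from whole uteri of females mated at 8 weeks of age by the labels, of strain C57B6/J, and by the study's methods the males were vasectomized, so no embryo was present. The 4 control libraries were from Nr2f2 f/f (Nr2f2 flox/flox) mice, labelled wild type, and the other 4 from Nr2f2 d/d mice (Pgr Cre/+; Nr2f2 flox/flox). Both groups carry floxed Nr2f2 alleles. Only the Nr2f2 d/d mice carry Cre, knocked into 1 allele of the progesterone receptor gene Pgr, so the loss of Nr2f2 cannot be told apart from Cre or from the changed Pgr allele. Cre acts only in cells that express Pgr, and whole tissue mixes those with cells that do not. The labels number the libraries as replicates and name no animals, so p-values measure the spread between these libraries.

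Library depth was 61150000 to 92600000 fragments. The targeted gene separated the groups as labelled: Nr2f2 measured 25.3, 21.8, 25.7 and 23.5 FPKM in Nr2f2 f/f and 9.66, 9.42, 6.9 and 9.74 FPKM in Nr2f2 d/d, a log2 fold change of -1.39 (SE 0.118, 95% interval -1.66 to -1.12, adjusted p = 0.00549). Among all 14323 genes tested with limma, 375 (2.62%) passed an adjusted p of 0.05, 156 higher and 219 lower in Nr2f2 d/d. The uterine stromal regulators Hoxa10 and Hoxa11 were at means of 121 and 91.5 FPKM in Nr2f2 f/f. Nr2f2 f/f replicate 2 held the highest value of 24.1% of all tested genes and the lowest of 26.4%, the most of any library, and Nr2f2 d/d replicate 3 came next with 19.2% and 20.4%. All 10 endothelial markers were lower in Nr2f2 d/d, 6 of them past the adjusted threshold, and their sum was 344 to 463 FPKM in Nr2f2 f/f and 209 to 262 FPKM in Nr2f2 d/d. The sum of 8 epithelial markers was 789 to 832 against 927 to 1136 FPKM, 7 of the 8 were higher with a median log2 fold change of 0.18 for the list, Krt8 alone passed (0.74), and Krt8 and Krt19 carried most of the difference, with Epcam at 0.06 and Cldn4 at -0.05. The sum of 9 stromal markers was 1209 to 1480 against 1589 to 2437 FPKM, but 5 of the 9 were lower. Of the 2 that passed Hand2 fell (log2 fold change -0.71, adjusted p = 0.0388 in limma) and Dcn rose, and Dcn and Col1a1 carried the difference in the sum. The sum of 6 gland markers was 148 to 3291 against 33.6 to 89.9 FPKM, of which Spink1, Prss28 and Prss29 made up most in Nr2f2 f/f. Spink1 alone passed, while the gland regulator Foxa2 differed by -0.02 and Lif by -0.06 on the log2 scale and Cxcl15 was higher at 1.02. Of 6 tested T and NK cell markers 6 were higher, with Cd3d past the adjusted threshold (adjusted p = 0.0231 in limma), and the sum of that list was 34.3 to 54.4 against 43.3 to 235 FPKM. Of 6 mesothelial markers 5 were higher, with Msln past it (adjusted p = 0.0398 in limma), and the sum was 70.4 to 96.8 against 89.01 to 112 FPKM. The macrophage and smooth muscle lists had 6 of 7 and 7 of 8 genes higher, with none past the adjusted threshold and overlapping sums. The part of these cell types in the differences described here was not tested. In whole tissue, fewer cells of a type and less RNA per cell cannot be told apart.

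TGF-beta family ligands are secreted dimers that bring together a type II and a type I receptor kinase. The type I receptor then phosphorylates receptor Smads, SMAD1, SMAD5 and SMAD9 for most BMPs and SMAD2 and SMAD3 for activins and TGF-betas, and these enter the nucleus with the common SMAD4. Secreted antagonists trap ligands, inhibitory Smads damp the signal, and Id genes, which encode inhibitors of helix-loop-helix transcription factors, are standard targets of BMP signaling. In the uterus, the pathway is known for its part in implantation, decidualization and gland and vessel function, with BMP2 as a ligand that decidualization requires.

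No member passed the adjusted threshold (limma, Benjamini-Hochberg adjustment over all 14323 genes), where 2.62% of all tested genes did. The smallest adjusted p among the members was 0.0626, for Inhbb. At an unadjusted p under 0.05, 18 of the 47 tested members were counted (38.3%), against 21.2% of all tested genes. By the study's own threshold, which asks for a 1.4-fold difference or more as well, 12 members were counted (25.5%, against 8.8% of all tested genes). Higher in Nr2f2 d/d by that threshold were Bmp2, Bmp5, Gdf5, Gdf10, Tgfb3, Inhba, Inhbb and Id2, and lower were Gdf7, Smad3, Fst and Nog. Quantile normalization gave 13, with 7 higher and 6 lower, because Gdf5 left and Eng and Smad5 joined. When each of the 8 libraries was left out in turn, Bmp5, Inhbb, Gdf7 and Fst met the study's threshold in all 8 fits. Id2, Smad3 and Nog met it in 7, Bmp2 in 6, Gdf5 and Tgfb3 in 4, and Gdf10 and Inhba in 2. The FPKM of the groups did not overlap for 11 members (23.4%), against 15.4% of all tested genes. These were Inhbb, Bmp5, Bmp6 and Id2, higher in every Nr2f2 d/d library, and Acvrl1, Fst, Eng, Smad3, Acvr2b, Bmpr2 and Nog, lower in every one. Without Nr2f2 d/d replicate 4 the count was 17, and 22.2% of all tested genes then did not overlap. In all, 26 tested members were higher and 21 lower, with a median log2 fold change of 0.05 (all tested genes, -0.02) and a median size of difference of 0.25 on the log2 scale (all tested genes, 0.16). An exact permutation test of 4 against 4 libraries cannot give a two-sided p under 0.0286, the value of each gene whose groups did not overlap.

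**Figure D1:**
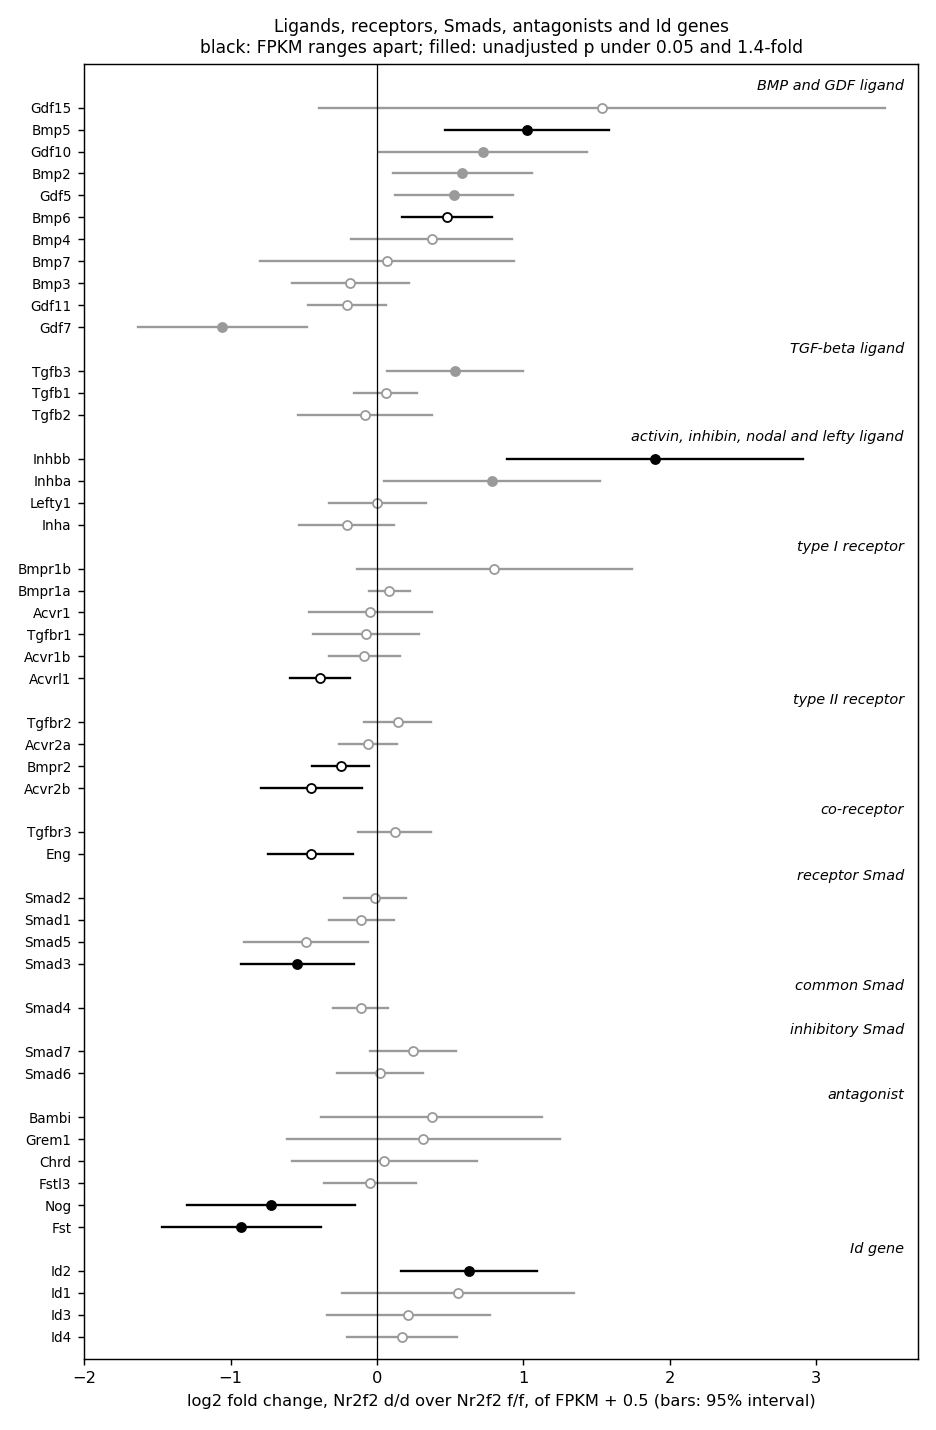
Log2 fold change (Nr2f2 d/d over Nr2f2 f/f, of FPKM + 0.5) of the 47 tested members by role, with 95% intervals. Black marks the 11 members whose FPKM ranges did not overlap and filled circles the 12 at the study's threshold. Inhbb sits farthest above 0 at 1.90 and Gdf7 farthest below at -1.05.

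The 250 bases before the annotated start are given for Inhbb, which had the highest log2 fold change of the tested members, for Gdf7, which had the lowest, and for Eng, a co-receptor whose groups did not overlap. They lie at chr1:119422249-119422498 on the minus strand (Inhbb), chr12:8301955-8302204 on the minus strand (Gdf7) and chr2:32646345-32646594 on the plus strand (Eng), outside annotated exons. They run 5′ to 3′ on the gene's strand, from RefSeq on GRCm38.p6 (mm10), in lower case with CAGAC or its complement GTCTG, the Smad box, in capitals.
Inhbb: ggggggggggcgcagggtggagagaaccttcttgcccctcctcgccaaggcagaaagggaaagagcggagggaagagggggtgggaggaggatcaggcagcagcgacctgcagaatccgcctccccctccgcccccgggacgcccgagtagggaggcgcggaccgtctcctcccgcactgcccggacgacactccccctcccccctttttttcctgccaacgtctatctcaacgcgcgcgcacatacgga
Gdf7: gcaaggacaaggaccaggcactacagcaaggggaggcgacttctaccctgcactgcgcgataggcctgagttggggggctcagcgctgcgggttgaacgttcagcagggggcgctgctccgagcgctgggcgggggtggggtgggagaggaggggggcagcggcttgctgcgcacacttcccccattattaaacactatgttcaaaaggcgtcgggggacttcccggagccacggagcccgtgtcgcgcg
Eng: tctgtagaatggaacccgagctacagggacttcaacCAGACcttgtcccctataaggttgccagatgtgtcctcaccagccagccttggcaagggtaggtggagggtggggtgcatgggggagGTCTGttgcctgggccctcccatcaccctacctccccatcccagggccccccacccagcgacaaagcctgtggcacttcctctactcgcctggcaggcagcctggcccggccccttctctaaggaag
The Eng window held 2 Smad boxes, while the Inhbb and Gdf7 windows held none. No window of these held the NR2F2 half-site (AGGTCA or GGGTCA) or the GC box of BMP-responsive genes (GGCGCC), each searched on both strands. The GC content was 68.0% for Inhbb, 66.0% for Gdf7 and 62.4% for Eng.

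Windows of the same length were found for 38 of the 55 members. Members without a window included Bmp2, Gdf5, Tgfb3, Fst, Nog, Acvrl1, Id1 and Smad7, so the shares below do not cover them. A member with several annotated starts had up to 3 windows, 45 in all, and shares are given per window. An NR2F2 half-site lay in 9 of the 45 (20%), among them windows of Bmp6, Chrd, Grem1 and Inha, and in 23.8% of 32851 windows of all genes. The GC box also lay in 9 (20%), among them windows of Id2, Id4, Smad5, Bmpr1a and Bmpr2, and in 9.59% of all windows. The Smad box lay in 21 (46.7%), and in 42.2% of all windows. The median GC content of their 45 windows was 65.2%, against 52.4% for all. A match describes these letters only, and the share of windows with the GC box was not adjusted for GC content.

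Among the BMP and GDF ligands, 11 of 15 were tested and 8 of these were higher in Nr2f2 d/d. Their median log2 fold change was 0.48. The largest difference downward was in Gdf7 (growth differentiation factor 7, also known as BMP12; chr12:8297918-8301954, minus strand). Gdf7 measured 29.6, 20.3, 27.8 and 25.8 FPKM in the 4 Nr2f2 f/f libraries and 20.9, 9.58, 11.5 and 9.14 FPKM in the 4 Nr2f2 d/d libraries. Nr2f2 d/d replicate 1 lay just above the lowest control, and the other 3 Nr2f2 d/d libraries lay well under all controls. The means were 25.9 ± 4.002 FPKM in Nr2f2 f/f and 12.8 ± 5.5 FPKM in Nr2f2 d/d (SD, n = 4 each), and the log2 fold change was -1.05 (SE 0.252, 95% interval -1.63 to -0.48, adjusted p = 0.0689). Without Nr2f2 d/d replicate 1 it was -1.31 and passed, with an adjusted p of 0.0261. No other fit that left out 1 library passed (adjusted p up to 0.181 in limma), and without Nr2f2 d/d replicate 4 it was -0.93. Gdf7 was the most abundant BMP or GDF mRNA in 3 of the 4 Nr2f2 f/f libraries and was exceeded by Gdf10 in replicate 2.

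Gdf10 (also called BMP3B; chr14:33923587-33937983, plus strand) measured 21.8, 22.3, 27.3 and 21.8 FPKM in Nr2f2 f/f and 55.3, 30.7, 60.4 and 21.6 FPKM in Nr2f2 d/d. The controls lay close together, and the Nr2f2 d/d libraries ran from the level of the lowest control to more than any control, so the ranges overlapped. The fitted log2 fold change was 0.72 (SE 0.309, 95% interval 0.02 to 1.43, adjusted p = 0.228), and it was 0.51 without Nr2f2 d/d replicate 3 and 1.00 without replicate 4. Set against the sum of the 15 BMP and GDF ligands, Gdf10 made up 26.8 to 31.9% in Nr2f2 f/f and 38.1 to 47.6% in Nr2f2 d/d. Gdf7 made up 29.1 to 36.4% in Nr2f2 f/f and 8.69 to 18% in Nr2f2 d/d. These shares were chosen after the values were seen and are given as a description. In all 4 Nr2f2 d/d libraries Gdf10 was the most abundant ligand mRNA of this class and Gdf7 took less of the sum than in any control. The sum itself was 69.9 to 86.4 FPKM in Nr2f2 f/f and 56.8 to 133 FPKM in Nr2f2 d/d, overlapping.

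**Figure D2:**
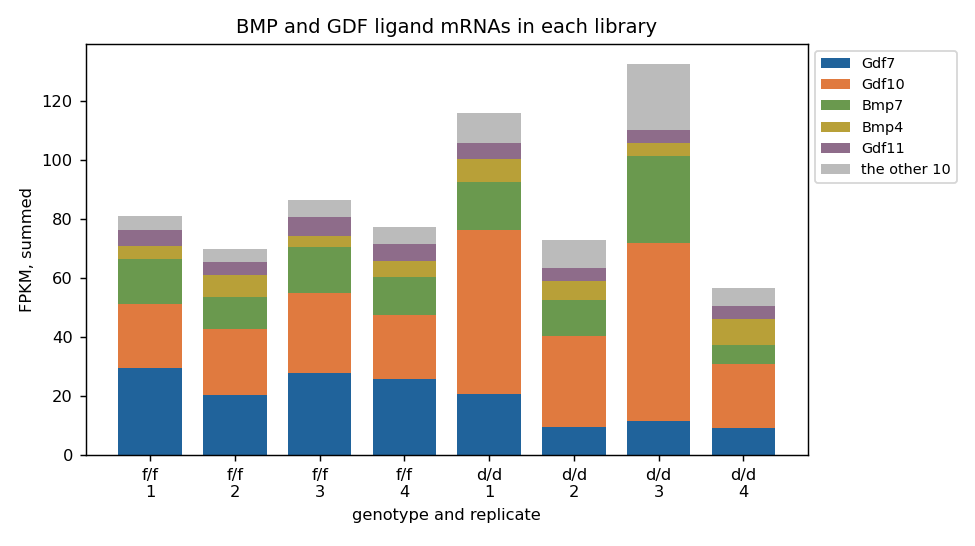
Summed FPKM of the 15 BMP and GDF ligands in each of the 8 libraries, stacked by gene. The Gdf7 share of each bar is 29.1 to 36.4% in Nr2f2 f/f and 8.69 to 18% in Nr2f2 d/d, and the Gdf10 share is 26.8 to 31.9% and 38.1 to 47.6%.

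Bmp5 and Bmp6, closely related BMP ligands, were higher in every Nr2f2 d/d library than in any control, at low levels. Bmp5 (chr9:75775364-75900310, plus strand) was at 0.285, 0.276, 0.543 and 0.743 FPKM in Nr2f2 f/f and at 2.17, 1.73, 1.08 and 0.932 FPKM in Nr2f2 d/d. The gap between the nearest libraries was small beside the spread within each group. Its log2 fold change was 1.02 (SE 0.244, 95% interval 0.46 to 1.58, adjusted p = 0.0683). Of its exon bases, 46.7% are shared with Gm26903 on the opposite strand, and the strand setting of the counting is not stated, so reads in that shared stretch cannot be told apart between the 2 genes. Bmp6 (chr13:38345107-38500302, plus strand) was at 1.64, 0.992, 1.1 and 1.26 FPKM in Nr2f2 f/f and at 1.88, 2.04, 2.11 and 1.66 FPKM in Nr2f2 d/d. Nr2f2 f/f replicate 1 and Nr2f2 d/d replicate 4 nearly met, and the other libraries stood clearly apart. The log2 fold change of Bmp6 was 0.48 (SE 0.133, 95% interval 0.17 to 0.79, adjusted p = 0.096).

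Bmp2, the ligand that decidualization requires, measured 1.66, 1.45, 1.25 and 1.67 FPKM in Nr2f2 f/f and 2.61, 2.34, 3.83 and 1.61 FPKM in Nr2f2 d/d. Its level was higher than in any control in 3 Nr2f2 d/d libraries and within the control range in replicate 4. The log2 fold change of Bmp2 was 0.58 (SE 0.206, 95% interval 0.11 to 1.06, adjusted p = 0.165), 0.41 without Nr2f2 d/d replicate 3 and 0.75 without replicate 4. Gdf5, a ligand of joint and limb development, measured 0.41, 0.364, 0.559 and 0.835 FPKM in Nr2f2 f/f and 0.74, 1.17, 0.861 and 1.2 FPKM in Nr2f2 d/d. One Nr2f2 d/d library lay under the highest control. The difference, as a log2 fold change, was 0.53 (SE 0.176, 95% interval 0.12 to 0.93, adjusted p = 0.147), and 40.3% of its exon bases are shared with Gm15557 on the opposite strand.

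The other tested ligands of this class did not reach an unadjusted p of 0.05. Bmp7, a ligand of epithelia and kidney development, averaged 13.7 ± 2.14 FPKM in Nr2f2 f/f and 16.2 ± 9.6 FPKM in Nr2f2 d/d (SD, n = 4 each), and its Nr2f2 d/d libraries ranged from 6.73 to 29.3 FPKM, below and above all controls. Bmp4, a ligand of mesenchyme, averaged 5.17 ± 1.55 FPKM in Nr2f2 f/f and 6.84 ± 1.84 FPKM in Nr2f2 d/d (SD, n = 4 each). Bmp3, which can oppose other BMPs, averaged 0.972 ± 0.174 FPKM in Nr2f2 f/f and 0.812 ± 0.258 FPKM in Nr2f2 d/d (SD, n = 4 each), and Gdf11, a relative of myostatin, averaged 5.55 ± 0.784 FPKM in Nr2f2 f/f and 4.74 ± 0.507 FPKM in Nr2f2 d/d (SD, n = 4 each). Gdf15, a distant family member induced by cell stress, was at 0.068 to 1.16 FPKM in Nr2f2 f/f and at 0.196 to 13.7 FPKM in Nr2f2 d/d, a log2 fold change of 1.54 (SE 0.842, 95% interval -0.40 to 3.47, adjusted p = 0.331). Its highest value came from Nr2f2 d/d replicate 3 alone, the next was 1.68 FPKM, and without that library the log2 fold change of Gdf15 was 0.69. Bmp8a stayed at or under 0.063 FPKM, Bmp8b at or under 0.134 FPKM, Gdf6 at or under 0.028 FPKM and Mstn, the gene of myostatin, at or under 0.008 FPKM in every library.

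Of the 3 TGF-beta ligands, Tgfb3 was counted at the study's threshold and Tgfb1 and Tgfb2 were not. Tgfb3 (chr12:86056745-86079041, minus strand) measured 5.74, 8.39, 5.64 and 6.46 FPKM in Nr2f2 f/f and 8.14, 8.7, 14.5 and 8.2 FPKM in Nr2f2 d/d. Nr2f2 d/d replicate 3 stood far above the rest, and Nr2f2 f/f replicate 2 reached the level of the other Nr2f2 d/d libraries. The fitted log2 fold change was 0.53 (SE 0.202, 95% interval 0.07 to 1.00, adjusted p = 0.191), and 0.34 without Nr2f2 d/d replicate 3. Tgfb1, the ligand best known from immune cells and fibrosis, measured 9.26, 8.52, 8.19 and 7.81 FPKM in Nr2f2 f/f and 10.3, 8.18, 8.73 and 8.19 FPKM in Nr2f2 d/d. The libraries of the 2 groups were intermixed, with a log2 fold change of 0.06 (SE 0.0928, 95% interval -0.15 to 0.27, adjusted p = 0.753). Tgfb2 averaged 6.07 ± 1.98 FPKM in Nr2f2 f/f and 5.55 ± 0.783 FPKM in Nr2f2 d/d (SD, n = 4 each). Tgfb3 made up 29.6 to 32.5% of the summed TGF-beta mRNAs in Nr2f2 f/f and 32.6 to 51.9% in Nr2f2 d/d.

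The activin and inhibin subunits held the largest fitted difference of all tested members. Activins are dimers of the beta subunits encoded by Inhba and Inhbb, and pairing of a beta subunit with the alpha subunit from Inha gives inhibin, which opposes activin. Inhbb (chr1:119415465-119422248, minus strand) measured 1.93, 5.05, 1.5 and 1.62 FPKM in Nr2f2 f/f and 8.47, 7.52, 21.7 and 6.48 FPKM in Nr2f2 d/d. Every Nr2f2 d/d library lay above every control, with Nr2f2 f/f replicate 2 the nearest control and Nr2f2 d/d replicate 3 far above its group. The means were 2.52 ± 1.69 FPKM in Nr2f2 f/f and 11 ± 7.14 FPKM in Nr2f2 d/d (SD, n = 4 each), and the log2 fold change was 1.90 (SE 0.44, 95% interval 0.89 to 2.91, adjusted p = 0.0626), with an exact permutation p of 0.0286. With Nr2f2 f/f replicate 2 left out, Inhbb passed at 2.24 (adjusted p = 0.0367), and without Nr2f2 d/d replicate 3 it was 1.53 (adjusted p = 0.0813). The sums of the epithelial and of the stromal markers were also higher in every Nr2f2 d/d library, through a few genes of each list, and their part in the Inhbb difference was not tested.

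Inhba (chr13:16011851-16031621, plus strand) was at 0.62, 0.601, 0.428 and 0.408 FPKM in Nr2f2 f/f and at 1.72, 0.806, 2.55 and 0.542 FPKM in Nr2f2 d/d. Replicate 4 of Nr2f2 d/d lay within the controls and the other 3 lay above them. The log2 fold change of Inhba was 0.79 (SE 0.321, 95% interval 0.05 to 1.52, adjusted p = 0.213), 0.52 without Nr2f2 d/d replicate 3 and 1.03 without replicate 4. Inha was at 3.1, 5.2, 4.1 and 4.31 FPKM in Nr2f2 f/f and at 3.75, 3.1, 3.66 and 3.51 FPKM in Nr2f2 d/d. The ranges overlapped, and its log2 fold change was -0.21 (SE 0.14, 95% interval -0.53 to 0.12, adjusted p = 0.426). Inha is also a gene of the ovary. Of 9 ovary markers, Fshr was at 0 in all 8 libraries and Cyp19a1, Zp3 and Lhcgr were at most at 0.005, 0.025 and 0.025 FPKM. Foxl2, at means of 13.5 FPKM in Nr2f2 f/f and 18.6 FPKM in Nr2f2 d/d, and Star, at 2.31 and 3.2 FPKM, were detected, and the part of ovarian RNA in the level of Inha was not tested. Only 3 of the 9 were tested and none passed in limma, and the sum of the list was 15.7 to 18.6 FPKM in Nr2f2 f/f and 17.4 to 27.2 FPKM in Nr2f2 d/d. Inhbb per Inha, a ratio of levels chosen after the values were seen, was 0.37 to 0.97 in Nr2f2 f/f and 1.85 to 5.93 in Nr2f2 d/d. Lefty1, which blocks nodal signaling, averaged 2.21 ± 0.463 FPKM in Nr2f2 f/f and 2.2 ± 0.298 FPKM in Nr2f2 d/d (SD, n = 4 each). Nodal stayed at or under 0.023 FPKM, in no library above the level of 3 fragments, and Lefty2 at or under 0.052 FPKM.

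The 6 antagonists were all tested, and 3 were higher and 3 lower in Nr2f2 d/d. Fst (follistatin; chr13:114452290-114458951, minus strand), which binds activins almost irreversibly, measured 8.27, 8.78, 11 and 14.5 FPKM in Nr2f2 f/f and 5.91, 4.57, 3.67 and 7.46 FPKM in Nr2f2 d/d. No Nr2f2 d/d library reached the lowest control. The means were 10.6 ± 2.83 FPKM in Nr2f2 f/f and 5.4 ± 1.65 FPKM in Nr2f2 d/d (SD, n = 4 each), and the log2 fold change was -0.93 (SE 0.236, 95% interval -1.47 to -0.38, adjusted p = 0.0783), with an exact permutation p of 0.0286. Fst per summed Inhba and Inhbb, a ratio of levels chosen after the values were seen, was 3.25, 1.55, 5.69 and 7.15 in Nr2f2 f/f and 0.58, 0.55, 0.15 and 1.06 in Nr2f2 d/d. The follistatin mRNA exceeded the summed activin beta subunit mRNAs in all 4 controls, and it was lower than that sum in 3 of the 4 Nr2f2 d/d libraries.

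Nog (noggin; chr11:89300638-89302332, minus strand), which binds BMPs, measured 18, 28.1, 12.9 and 13.5 FPKM in Nr2f2 f/f and 11.9, 9.8, 11.9 and 7.89 FPKM in Nr2f2 d/d. The groups did not overlap, with Nr2f2 f/f replicate 2 well above the other controls. Its log2 fold change was -0.72 (SE 0.25, 95% interval -1.30 to -0.15, adjusted p = 0.158), and -0.49 without Nr2f2 f/f replicate 2. Bambi, a decoy receptor without a kinase domain, measured 6.17, 4.89, 8.8 and 12.5 FPKM in Nr2f2 f/f and 9.13, 15.2, 6.22 and 11.6 FPKM in Nr2f2 d/d. Its libraries were intermixed, with a log2 fold change of 0.38 (SE 0.329, 95% interval -0.38 to 1.13, adjusted p = 0.547). The other 3 antagonists overlapped widely. Chrd (chordin), which binds BMPs, averaged 5.25 ± 1.73 FPKM in Nr2f2 f/f and 5.48 ± 2.02 FPKM in Nr2f2 d/d (SD, n = 4 each). Grem1 (gremlin), also a BMP antagonist, averaged 0.56 ± 0.383 FPKM in Nr2f2 f/f and 0.861 ± 0.54 FPKM in Nr2f2 d/d (SD, n = 4 each). Fstl3, a follistatin-like activin antagonist, averaged 2.38 ± 0.456 FPKM in Nr2f2 f/f and 2.27 ± 0.27 FPKM in Nr2f2 d/d (SD, n = 4 each), and 47.3% of its exon bases are shared with Prss57 on the opposite strand. Summed over the 5 secreted antagonists Fst, Fstl3, Nog, Chrd and Grem1, the level was 31.7 to 46.2 FPKM in Nr2f2 f/f and 22.4 to 27.1 FPKM in Nr2f2 d/d.

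**Figure D3:**
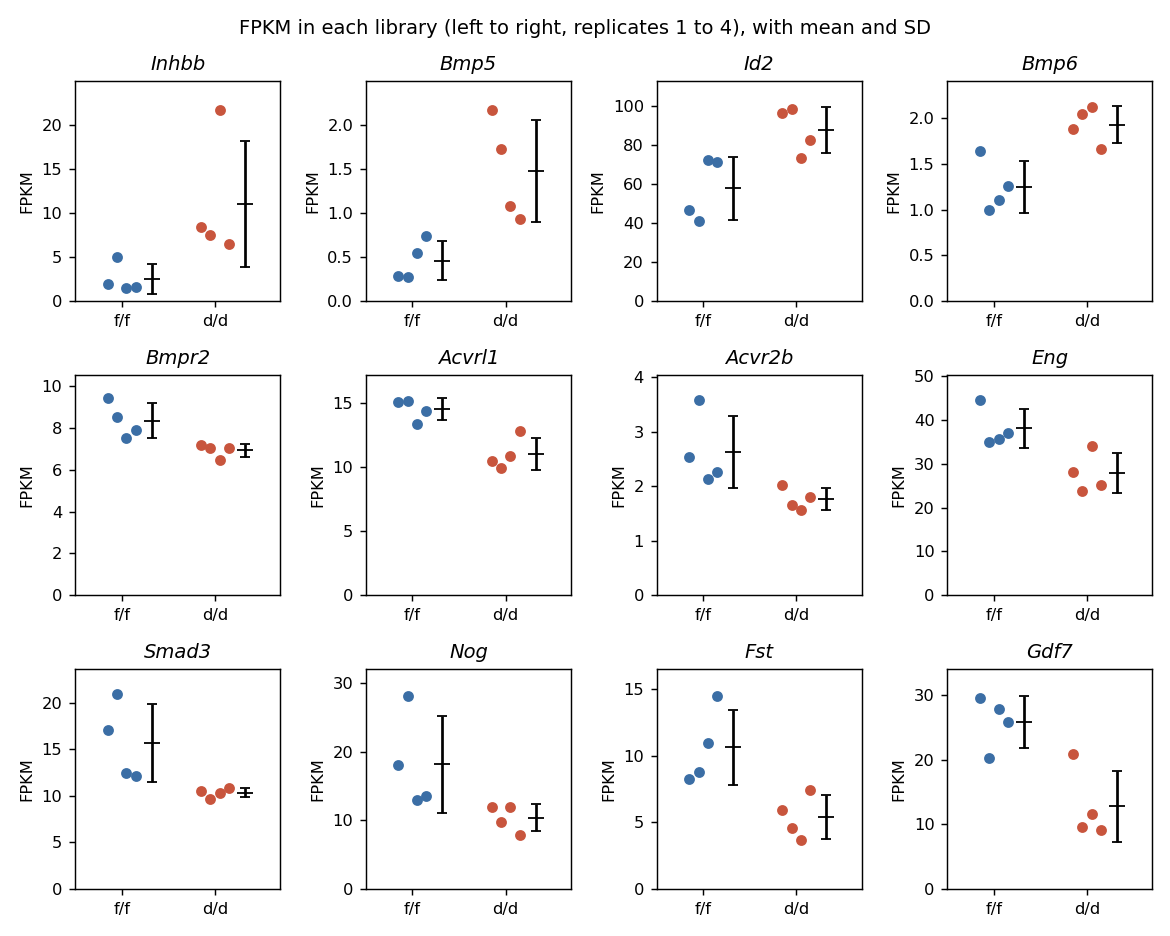
FPKM in each library of the 11 members whose ranges did not overlap between the groups, and of Gdf7, with mean and SD. Inhbb, Bmp5, Id2 and Bmp6 sit higher in all 4 Nr2f2 d/d libraries, 7 genes from Bmpr2 to Fst sit lower in all 4, and Gdf7 overlaps through Nr2f2 d/d replicate 1 at 20.9 FPKM.

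Of the 12 tested receptors and co-receptors, 8 were lower in Nr2f2 d/d (6 to 8 with 1 library left out), and the groups did not overlap for Acvrl1, Eng, Bmpr2 and Acvr2b. Acvrl1 (ALK1; chr15:101128522-101145336, plus strand), a type I receptor of endothelial cells for BMP9 and BMP10, measured 15.1, 15.2, 13.4 and 14.4 FPKM in Nr2f2 f/f and 10.5, 9.93, 10.9 and 12.8 FPKM in Nr2f2 d/d. The highest Nr2f2 d/d library lay just under the lowest control. The log2 fold change of Acvrl1 was -0.39 (SE 0.0897, 95% interval -0.59 to -0.18, adjusted p = 0.0628), and without Nr2f2 d/d replicate 4 it was -0.46 and passed (adjusted p = 0.0365). No other fit that left out 1 library passed for Acvrl1 (adjusted p up to 0.17 in limma), and without Nr2f2 d/d replicate 2 it was -0.34. Eng (endoglin, chr2:32646595-32682669, plus strand) encodes a co-receptor of endothelial cells. It measured 44.7, 35.1, 35.7 and 36.9 FPKM in Nr2f2 f/f and 28.2, 23.8, 34 and 25.2 FPKM in Nr2f2 d/d. Nr2f2 d/d replicate 3 came close to the controls, and the other 3 did not. The log2 fold change of Eng was -0.45 (SE 0.127, 95% interval -0.74 to -0.16, adjusted p = 0.0989). Bmpr2 (chr1:59763400-59879014, plus strand), a type II receptor for BMPs in many cell types, measured 9.44, 8.53, 7.51 and 7.91 FPKM in Nr2f2 f/f and 7.17, 7.06, 6.46 and 7.03 FPKM in Nr2f2 d/d. Its groups were narrowly apart, with a log2 fold change of -0.25 (SE 0.0842, 95% interval -0.44 to -0.05, adjusted p = 0.152).

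These differences stood beside lower endothelial markers, all 10 of which were lower in Nr2f2 d/d, at a median of -0.73 on the log2 scale. Per 100 FPKM of the summed markers, Acvrl1 was at 3.27 to 3.89 FPKM in Nr2f2 f/f and at 4.15 to 5.55 FPKM in Nr2f2 d/d. On the same scale Eng was at 8.79 to 10.4 and at 10.9 to 13.5 FPKM, and Bmpr2 at 2.04 to 2.18 and at 2.47 to 3.43 FPKM. All 3 mRNAs were thus lower per library and higher per endothelial marker mRNA in every Nr2f2 d/d library than in any control. The marker sum was itself lower in every Nr2f2 d/d library. A gene at an equal level in both groups would therefore also be higher on this scale. The share of all genes for which this held was not counted. The scaling by markers was chosen after the values were seen, and the part of endothelial content in the 3 differences was not tested.

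**Figure D4:**
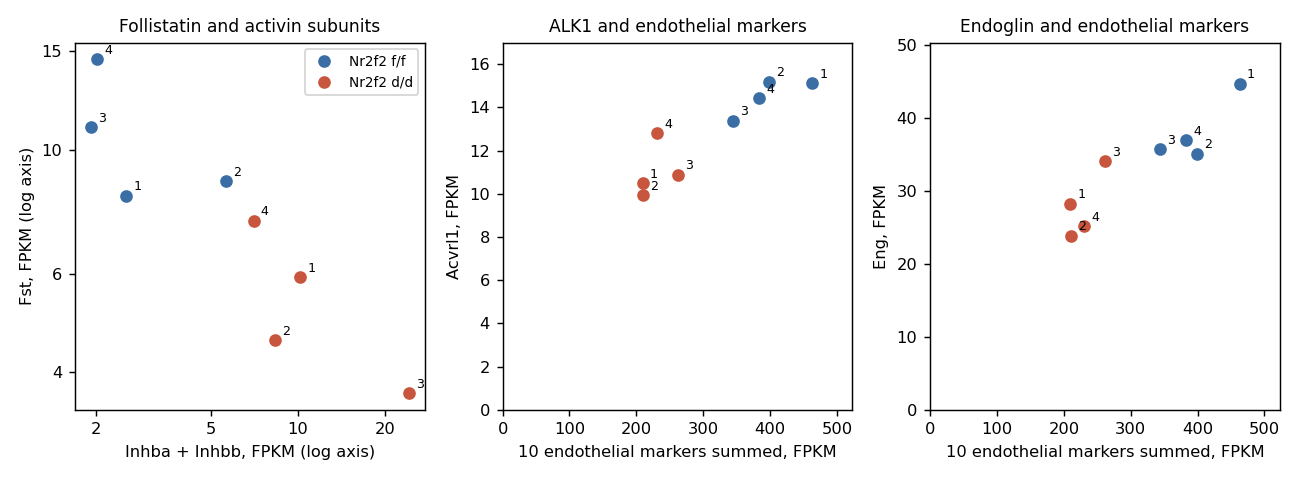
Each point is 1 library, numbered by replicate: Fst against summed Inhba and Inhbb (both FPKM, log axes), and Acvrl1 and Eng against the sum of 10 endothelial markers (FPKM, linear axes from 0). Nr2f2 d/d libraries sit at higher subunit and lower Fst levels, and at 209 to 262 FPKM of endothelial markers against 344 to 463 FPKM in Nr2f2 f/f.

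Acvr2b (chr9:119402118-119434995, plus strand), a type II receptor for activins and several GDFs, measured 2.54, 3.58, 2.12 and 2.26 FPKM in Nr2f2 f/f and 2.03, 1.66, 1.56 and 1.81 FPKM in Nr2f2 d/d. The groups did not overlap, and Nr2f2 f/f replicate 2 was the highest control. The difference, as a log2 fold change, was -0.45 (SE 0.151, 95% interval -0.79 to -0.10, adjusted p = 0.149), and -0.31 without that library. Its paralog Acvr2a averaged 4.77 ± 0.0864 FPKM in Nr2f2 f/f and 4.57 ± 0.489 FPKM in Nr2f2 d/d (SD, n = 4 each), with overlapping ranges and a log2 fold change of -0.06 (SE 0.0859, 95% interval -0.26 to 0.14, adjusted p = 0.716).

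Tgfbr2, the type II receptor for TGF-betas and the most abundant receptor of the list, measured 37.1, 37.2, 46.8 and 43 FPKM in Nr2f2 f/f and 50.2, 44.5, 44.8 and 41.3 FPKM in Nr2f2 d/d. Its libraries were intermixed, with a log2 fold change of 0.14 (SE 0.0987, 95% interval -0.09 to 0.37, adjusted p = 0.442). Tgfbr3 (betaglycan), a co-receptor that presents TGF-beta 2 and binds inhibin, measured 20.02, 23.7, 27.2 and 25.6 FPKM in Nr2f2 f/f and 26.7, 25.8, 28.9 and 23.3 FPKM in Nr2f2 d/d, also intermixed, with a log2 fold change of 0.12 (SE 0.109, 95% interval -0.13 to 0.37, adjusted p = 0.557). Bmpr1a (ALK3), a BMP receptor and the most abundant type I receptor mRNA of the list, measured 16.4, 16.7, 16.5 and 17.6 FPKM in Nr2f2 f/f and 18.7, 18.3, 17.7 and 16.7 FPKM in Nr2f2 d/d. Only Nr2f2 d/d replicate 4 lay within the controls, and the log2 fold change was small, at 0.09 (SE 0.0616, 95% interval -0.06 to 0.23, adjusted p = 0.455).

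Bmpr1b (ALK6) was the type I receptor with the largest difference in size, at 0.25 to 1.6 FPKM in Nr2f2 f/f and 0.73 to 3.22 FPKM in Nr2f2 d/d, which overlapped. The fitted log2 fold change was 0.80 (SE 0.409, 95% interval -0.14 to 1.74, adjusted p = 0.302). Acvr1 (ALK2), a BMP receptor, averaged 7.12 ± 1.73 FPKM in Nr2f2 f/f and 6.86 ± 1.4 FPKM in Nr2f2 d/d (SD, n = 4 each). Acvr1b (ALK4), the activin receptor, averaged 10.2 ± 1.46 FPKM in Nr2f2 f/f and 9.55 ± 0.686 FPKM in Nr2f2 d/d (SD, n = 4 each), and Tgfbr1 (ALK5), the TGF-beta receptor, averaged 10.3 ± 2.33 FPKM in Nr2f2 f/f and 9.61 ± 1.2 FPKM in Nr2f2 d/d (SD, n = 4 each). None of the 3 reached an unadjusted p of 0.05. Acvr1c (ALK7) stayed at or under 0.054 FPKM. The summed type I receptors were at 56.1 to 65.4 FPKM in Nr2f2 f/f and 55.5 to 58.3 FPKM in Nr2f2 d/d, and the summed type II receptors at 53.9 to 61.1 and 54.6 to 64.4 FPKM.

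Of the 4 tested receptor Smads, Smad3, Smad5 and Smad1 were lower in Nr2f2 d/d and Smad2 was near 0, with a median of -0.30 on the log2 scale. Smad3 (chr9:63646767-63757994, minus strand), an activin and TGF-beta effector, measured 17.1, 20.9, 12.5 and 12.1 FPKM in Nr2f2 f/f and 10.5, 9.65, 10.3 and 10.8 FPKM in Nr2f2 d/d. The Nr2f2 d/d libraries lay in a narrow band, all under the controls, which were spread more widely. Its log2 fold change was -0.54 (SE 0.168, 95% interval -0.93 to -0.16, adjusted p = 0.124), and -0.39 without Nr2f2 f/f replicate 2. Smad2, its partner in the same branch, averaged 4.87 ± 0.556 FPKM in Nr2f2 f/f and 4.8 ± 0.241 FPKM in Nr2f2 d/d (SD, n = 4 each), with a log2 fold change of -0.01 (SE 0.093, 95% interval -0.23 to 0.20, adjusted p = 0.948), which ran from -0.084 to 0.032 as single libraries were left out.

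In the BMP branch, Smad5 measured 32.8, 37.2, 20.2 and 22.7 FPKM in Nr2f2 f/f and 19.6, 18.5, 19.4 and 20.4 FPKM in Nr2f2 d/d. The highest Nr2f2 d/d library lay just above the lowest control, and Nr2f2 f/f replicates 1 and 2 stood well above the other controls. The difference, as a log2 fold change, was -0.48 (SE 0.184, 95% interval -0.91 to -0.06, adjusted p = 0.192), just short of 1.4-fold, and -0.34 without Nr2f2 f/f replicate 2. Smad1, the most abundant Smad mRNA, measured 41.3, 39.6, 32.6 and 37.5 FPKM in Nr2f2 f/f and 39.4, 33.4, 35 and 32.1 FPKM in Nr2f2 d/d. Its ranges overlapped, with a log2 fold change of -0.11 (SE 0.0965, 95% interval -0.33 to 0.12, adjusted p = 0.56). Smad9 stayed at or under 0.459 FPKM, above the level of 3 fragments in all 8 libraries.

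The common Smad, Smad4, measured 22.7, 25.7, 21 and 21.3 FPKM in Nr2f2 f/f and 22.7, 19.9, 20.2 and 20.9 FPKM in Nr2f2 d/d, with a log2 fold change of -0.11 (SE 0.0822, 95% interval -0.30 to 0.08, adjusted p = 0.474) and overlapping ranges. The inhibitory Smads are themselves targets of the pathway. Smad7 measured 3.76, 3.29, 4.29 and 3.81 FPKM in Nr2f2 f/f and 5.45, 4.42, 4.92 and 3.63 FPKM in Nr2f2 d/d, where 3 libraries lay above all controls and replicate 4 did not. The fitted log2 fold change was 0.24 (SE 0.128, 95% interval -0.05 to 0.54, adjusted p = 0.314). Smad6, the inhibitor more specific to the BMP branch, measured 4.22, 4.79, 4.28 and 4.18 FPKM in Nr2f2 f/f and 5.23, 4.71, 4.69 and 3.34 FPKM in Nr2f2 d/d, intermixed, with a log2 fold change of 0.02 (SE 0.128, 95% interval -0.27 to 0.32, adjusted p = 0.935).

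All 4 Id genes had a log2 fold change above 0, and Id2 alone did not overlap. Their median was 0.39, but 0.17 without Nr2f2 f/f replicate 2, where Id1 was at 0.28, Id3 at 0.03 and Id4 at 0.06. Id2 (chr12:25093799-25097140, minus strand) measured 47, 41.1, 72.5 and 71.1 FPKM in Nr2f2 f/f and 96.6, 98.5, 73.5 and 82.5 FPKM in Nr2f2 d/d. Nr2f2 f/f replicates 3 and 4 came close to Nr2f2 d/d replicate 3, and the other libraries stood further apart. Its log2 fold change was 0.63 (SE 0.202, 95% interval 0.16 to 1.09, adjusted p = 0.135), and 0.48 without Nr2f2 f/f replicate 2. Id3 measured 87, 41.7, 53.4 and 77.2 FPKM in Nr2f2 f/f and 69, 62.4, 95.6 and 66.6 FPKM in Nr2f2 d/d, with overlapping ranges and a log2 fold change of 0.22 (SE 0.242, 95% interval -0.34 to 0.77, adjusted p = 0.644). Id1 averaged 43.6 ± 14.9 FPKM in Nr2f2 f/f and 64.4 ± 24 FPKM in Nr2f2 d/d (SD, n = 4 each), with a log2 fold change of 0.55 (SE 0.345, 95% interval -0.24 to 1.34, adjusted p = 0.388). Id4 averaged 17.9 ± 3.61 FPKM in Nr2f2 f/f and 20.1 ± 3.03 FPKM in Nr2f2 d/d (SD, n = 4 each). Nr2f2 f/f replicate 2 held the lowest value of all 4 Id genes. The summed Id mRNAs were at 192, 120.0, 204 and 221 FPKM in Nr2f2 f/f and 252, 239, 282 and 209 FPKM in Nr2f2 d/d, which overlapped.

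Nr2f2 d/d replicate 3 held the highest value of 11 members (23.4%, against 19.2% of all tested genes). These were Bmp2, Bmp6, Bmp7, Gdf10, Gdf15, Tgfb3, Inhba, Inhbb, Tgfbr3, Id1 and Id3, of which 8 are ligands or ligand subunits. Nr2f2 f/f replicate 2 held the highest value of 10 members and the lowest of 12 (21.3% and 25.5%).

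A list of 67 other genes of the pathway, covering further ligands, co-receptors, modulators, latency and activation factors, intracellular regulators and targets, was set beside the members. Of these, 53 were tested, 5 passed the adjusted threshold (2 rose and 3 fell, where 2.62% of all tested genes passed). An unadjusted p under 0.05 was met by 20 (37.7%, against 21.2%), and 11 were counted at the study's threshold (20.8%, against 8.8%), 6 higher and 5 lower. The groups did not overlap for 18 (34.0%, against 15.4% of all tested genes).

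Of the 5 genes that passed, 2 were listed under latency and activation, 2 under extracellular modulators and 1 under receptors. Itgb8, the integrin beta subunit that frees latent TGF-beta, fell from 2.44, 3.28, 2.18 and 1.86 FPKM in Nr2f2 f/f to 0.727, 0.503, 0.394 and 0.75 FPKM in Nr2f2 d/d, with a log2 fold change of -1.42 (SE 0.176, 95% interval -1.82 to -1.02, adjusted p = 0.0121). No library of one group came near the other, and among fits that left out 1 library the call was lost only without Nr2f2 d/d replicate 2 (adjusted p = 0.0609). Ltbp1, a latent TGF-beta binding protein of the matrix, rose from 5.16, 6.59, 7.39 and 4.73 to 11.4, 11.1, 13.8 and 10.6 FPKM, with a log2 fold change of 0.93 (SE 0.148, 95% interval 0.59 to 1.27, adjusted p = 0.0237). Its call was lost without Nr2f2 f/f replicate 1 or 4 or Nr2f2 d/d replicate 1 or 2 (adjusted p up to 0.0747). Dcn (decorin), an abundant matrix proteoglycan that binds TGF-beta, rose from 357, 499, 395 and 391 to 713, 673, 719 and 713 FPKM, with a log2 fold change of 0.79 (SE 0.116, 95% interval 0.52 to 1.06, adjusted p = 0.0192). Its call was lost without the same 4 libraries (adjusted p up to 0.0663). Dcn is also 1 of the 9 stromal markers.

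Bmper, which binds BMPs in the extracellular space, fell from 1.07, 0.802, 1.1 and 1.29 to 0.311, 0.313, 0.547 and 0.408 FPKM, with a log2 fold change of -0.81 (SE 0.141, 95% interval -1.13 to -0.48, adjusted p = 0.0299). Its groups did not overlap, and its call held only without Nr2f2 f/f replicate 2 or Nr2f2 d/d replicate 3 when 1 library was left out (adjusted p up to 0.0997). Cd109, a membrane co-receptor that restrains TGF-beta receptors, fell from 5.87, 5.97, 4.06 and 5.44 to 2.73, 2.18, 3.66 and 2.25 FPKM, with a log2 fold change of -0.87 (SE 0.171, 95% interval -1.27 to -0.48, adjusted p = 0.0418). It held only without Nr2f2 f/f replicate 3 or Nr2f2 d/d replicate 3 (adjusted p up to 0.128), and with no filter on low values its adjusted p was 0.0651. None of the 12 tested intracellular regulators and 13 tested target genes of the list passed in limma, and 1 and 3 of them had an unadjusted p under 0.05.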

How the data were processed

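Uterine RNA was sequenced as 4 libraries from Nr2f2 f/f and 4 from Nr2f2 d/d mice, and the authors deposited 1 table of FPKM per gene. By the paper's methods, 76-bp read pairs were trimmed with cutadapt 1.12, aligned to mm10 with STAR 2.5.2b and counted per gene with featureCounts 1.5.0-p1. The submitters' processing notes also list Cufflinks 2.0.2, with no role. The formula of the FPKM, the annotation and the strand setting of the counting were not given in the sources used here. The authors' own test, with DESeq2 on counts, was not used here. Each FPKM depends on the library total, and where genes overlap on opposite strands a fragment may be given to either.

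All 8 columns were matched to libraries by name, and groups and replicate numbers 1 to 4 are those of the sample titles. No sequencing batch is named in the labels. The 14323 genes that averaged 0.5 FPKM or more were tested as log2(FPKM + 0.5) in R 4.3.3, with limma 3.58.1 (lmFit, then eBayes fitting a mean-variance trend). Tests were two-sided, with Benjamini-Hochberg adjustment over all these genes. A fold change is on this scale and understates the change of low genes. Genotype was the only term. In a test on 1 set of simulated data with this spread, the share of unchanged genes among the calls was above the nominal 0.05 and most genes changed by the smallest simulated fold were missed, so adjusted p-values near the threshold may be too small. For single genes, a two-sided exact permutation test ran through the 70 ways to split the libraries 4 and 4. The members and lists were chosen with earlier results of these data known. Values in every library are given for members at the adjusted or the study's threshold, members whose groups did not overlap and the 2 most abundant of each role. Of the other pathway genes, those past the adjusted threshold are named, or else the 5 with the smallest p.

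Depth was recovered from single-exon genes up to 1500 bases long, of which 77.9 to 79.8% came out as whole fragments (within 0.1) at 1 library total, against 13.4 to 14.6% at other totals. The level of 3 fragments covers counting error only. Coordinates are from GENCODE vM21 (mm10). Alternatives were adding 0.1 or 1 FPKM, no filter or one at 1 FPKM, quantile normalization, median-ratio scaling, eBayes robust or without trend, a replicate block, and leaving out each library. Tables were made with Python 3.11.15.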

Additional observations from a re-analysis of the deposited data

Results flagged for a closer look

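In 7 of 94 groups of 4 libraries, formed by 47 tested members in each genotype, 1 library lay far from the other 3 (a gap to the nearest library, as a share of the group's range, over Dixon's 95% critical value for 4). Chance gives about 1 in 20 such groups, and the share was 7.45% for the members against 6.91% over all tested genes, so the count is near the background. Inhbb, the activin beta B subunit, met this in both genotypes: Nr2f2 f/f replicate 2 was at 5.05 FPKM, where the other controls were at 1.5 to 1.93 FPKM, and Nr2f2 d/d replicate 3 was at 21.7 FPKM, where the other 3 were at 6.48 to 8.47 FPKM. The same Nr2f2 d/d library held Tgfb3 at 14.5 FPKM, with 8.15 to 8.7 FPKM in the other 3, and Gdf15 at 13.7 FPKM, with 0.196 to 1.68 FPKM in the other 3. Gdf10 was at 27.3 FPKM in Nr2f2 f/f replicate 3 and at 21.8 to 22.3 FPKM in the other controls. Acvr1, a type I BMP receptor, was at 9.7 FPKM in Nr2f2 f/f replicate 1 and at 5.95 to 6.53 FPKM in the other controls. Smad6 was at 4.79 FPKM in Nr2f2 f/f replicate 2 and at 4.18 to 4.28 FPKM in the other controls.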

How the results depend on the processing

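Every choice of added FPKM, filter, scaling and variance setting left the count of members past the adjusted threshold at 0 and the count at the study's threshold at 9 (mean of at least 1 FPKM) to 15 (0.1 FPKM added). Leaving out 1 library gave 0 to 1 members past the adjusted threshold, namely Inhbb without Nr2f2 f/f replicate 2, Gdf7 without Nr2f2 d/d replicate 1 and Acvrl1 without Nr2f2 d/d replicate 4. Members whose groups did not overlap then numbered 11 to 17, the most without Nr2f2 d/d replicate 4. In the same fits 17.0 to 22.2% of all tested genes did not overlap, against 15.4% with all 8 libraries. The count of all genes past the adjusted threshold was 42 to 348 in place of 375. Leaving out Nr2f2 f/f replicate 1 gave 62, replicate 3 gave 208 and replicate 4 gave 95, and among Nr2f2 d/d libraries replicate 1 gave 57 and replicate 2 gave 42. Of the other pathway genes, 0 to 5 passed in place of 5, with 1 without Nr2f2 f/f replicate 1 or 4 or Nr2f2 d/d replicate 1 and 0 without Nr2f2 d/d replicate 2. The sign of 11 of the 47 tested members turned when 1 library was left out (Bmp7, Tgfb1, Tgfb2, Lefty1, Acvr1, Tgfbr1, Acvr2a, Smad2, Smad6, Fstl3 and Chrd). The log2 fold change of Tgfb1 ranged from -0.011, without Nr2f2 d/d replicate 1, to 0.102, and that of Smad6 from -0.048 to 0.144, at or below 0 without Nr2f2 d/d replicate 1, 2 or 3. The cause was not tested. With the replicate number as a block, 1 gene in all and 0 other pathway genes passed, and Nr2f2 itself kept -1.39 with an adjusted p of 0.0714. No member passed under the block (smallest adjusted p 0.13). The block used the numbers of the titles, where deviations of same-numbered libraries correlated at -0.20, -0.17, 0.05 and -0.04. The sample descriptions number the libraries otherwise, and the 3 pairs sharing a number there correlated at -0.20, 0.15 and -0.04. Neither numbering was taken as pairing the libraries. A filter at 1 FPKM left no value for 5 members (Inhba, Gdf5, Bmp5, Bmp3 and Grem1), nor for Bmper. Of the 8 members too low to be tested, Mstn and Nodal were not above 3 fragments in any library, and Smad9 and Acvr1c were above it in all 8.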

Other observations

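Several other pathway genes that missed the adjusted threshold are given here by value, chosen after their values were seen. Itgb6, the epithelial integrin subunit that also frees latent TGF-beta, averaged 1.19 ± 0.5 FPKM in Nr2f2 f/f and 2.8 ± 0.681 FPKM in Nr2f2 d/d (SD, n = 4 each). Its log2 fold change was 1.00 (SE 0.259, 95% interval 0.41 to 1.6, adjusted p = 0.0806), and its groups did not overlap. Msx2, a homeobox gene of the uterus that responds to BMPs, averaged 1.71 ± 0.712 FPKM in Nr2f2 f/f and 6.27 ± 4.37 FPKM in Nr2f2 d/d (SD, n = 4 each), with a log2 fold change of 1.41 (SE 0.496, 95% interval 0.27 to 2.55, adjusted p = 0.163). The ranges of Msx2 overlapped, at 0.886 to 2.39 FPKM in Nr2f2 f/f and 2.12 to 11.2 FPKM in Nr2f2 d/d. Its paralog Msx1 averaged 32.2 ± 11.9 FPKM in Nr2f2 f/f and 37.6 ± 13.1 FPKM in Nr2f2 d/d (SD, n = 4 each), with a log2 fold change of 0.22 (SE 0.357, 95% interval -0.60 to 1.04, adjusted p = 0.769). Among modulators, Twsg1, which binds BMPs together with chordin, averaged 29.4 ± 1.34 FPKM in Nr2f2 f/f and 37.9 ± 3.63 FPKM in Nr2f2 d/d (SD, n = 4 each), with a log2 fold change of 0.36 (SE 0.0822, 95% interval 0.17 to 0.55, adjusted p = 0.0599). Crim1, a membrane protein that binds BMPs, averaged 8.51 ± 2.62 FPKM in Nr2f2 f/f and 4.8 ± 0.588 FPKM in Nr2f2 d/d (SD, n = 4 each), with a log2 fold change of -0.73 (SE 0.202, 95% interval -1.19 to -0.26, adjusted p = 0.096). Each Nr2f2 d/d library lay above all controls for Itgb6 and Twsg1, and under all controls for Crim1.

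Fkbp1a, which encodes the immunophilin that holds type I receptors silent, averaged 180.3 ± 25.8 FPKM in Nr2f2 f/f and 130.5 ± 8.84 FPKM in Nr2f2 d/d (SD, n = 4 each), with groups that did not overlap and a log2 fold change of -0.46 (SE 0.112, 95% interval -0.71 to -0.20, adjusted p = 0.0721). Pmepa1, a target of SMAD2 and SMAD3 that limits their activation, averaged 3.81 ± 1.14 FPKM in Nr2f2 f/f and 7.77 ± 4.18 FPKM in Nr2f2 d/d (SD, n = 4 each), with a log2 fold change of 0.86 (SE 0.319, 95% interval 0.13 to 1.59, adjusted p = 0.183). The ranges of Pmepa1 overlapped, at 2.73 to 5.43 FPKM in Nr2f2 f/f and 4.78 to 14.0 FPKM in Nr2f2 d/d. Zeb2, a repressor that binds Smads, averaged 5.08 ± 0.363 FPKM in Nr2f2 f/f and 3.74 ± 0.501 FPKM in Nr2f2 d/d (SD, n = 4 each), with a log2 fold change of -0.40 (SE 0.102, 95% interval -0.64 to -0.17, adjusted p = 0.0764).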
